A study of Mus musculus with 14 samples.

Results

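The tissue by stage interaction asks whether the difference between bladder and urethral epithelium changed between 2 stages of the female mouse embryo. For each gene it is the bladder minus urethra difference at E18.5 (embryonic day), minus the same difference at E14.5, on a log2 scale. A value above 0 is called here toward bladder: with stage the gene rose more, or fell less, in bladder than in urethra. A value below 0 is called toward urethra. The genes described are all those that passed a filter on low counts, 18286 of the 55228 genes counted. RNA came from 14 libraries of wildtype, untreated CD-1 embryos, an outbred strain. The 4 groups were E14.5 bladder (4 libraries), E14.5 urethra (4), E18.5 bladder (3) and E18.5 urethra (3). After trypsin the epithelial layer was peeled off the mesenchyme by hand, and epithelium of the females of a litter was pooled. The design text gives 4 litters at E14.5, the extraction notes 3 for every kind of sample, and the labels do not say which bladder and urethral libraries share a litter. All groups therefore stand for pooled, hand-peeled epithelium from 1 sex and 1 strain.

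Both epithelia form from the endoderm of the urogenital sinus. The bladder part becomes urothelium, a stratified lining with superficial cells that coat their surface with uroplakins over intermediate and basal cells, while the female urethral part takes on squamous and mucous features toward its outlet. The epithelium signals to the surrounding mesenchyme with Sonic hedgehog, and the mesenchyme answers with target genes such as Ptch1 and Gli1 while smooth muscle forms around the bladder. An interaction picks out genes for which these epithelia part ways, or draw together, between the stages.

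Of the 18286 genes tested, 4165 passed (22.8%) at an adjusted p under 0.05, with edgeR's quasi-likelihood F test and Benjamini-Hochberg adjustment over all of them. Toward bladder 2219 passed (12.1%) and toward urethra 1946 (10.6%). Changes of at least 2-fold made up 1804 of the first set and 925 of the second. The toward-bladder genes were mostly genes that rose in bladder: 1317 rose there with no passing change in urethra, 414 fell in urethra with no passing change in bladder, and 181 did both. The toward-urethra genes were split more evenly, with 776 that fell in bladder alone, 761 that rose in urethra alone and 214 that did both. Single-stage tissue differences from the same fit passed for 45.9% of genes at the early stage and 34.3% at the late one, and stage changes for 40.2% in bladder and 32.9% in urethra. By direction, 4451 genes were higher in bladder and 3937 lower at E14.5, and 3453 higher and 2822 lower at E18.5. With stage 3630 rose and 3724 fell in bladder, and 3147 rose and 2865 fell in urethra. For 540 genes (2.95%) the tissue difference passed at both stages and turned over, from urethra-high to bladder-high in 360 and the other way in 180. Stage changes that passed in both tissues with opposite signs made up 395 genes (2.16%). The plot of the tissue difference at each stage shows these sets.

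**Figure D1:**
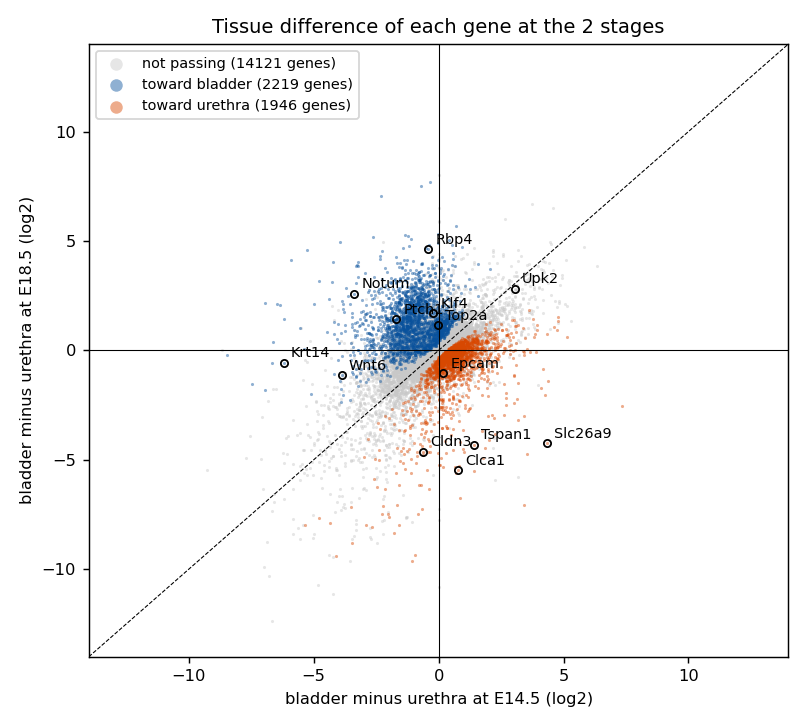
Each point is 1 of 18286 genes, with its bladder minus urethra difference (log2) at E14.5 on the x axis and at E18.5 on the y axis. The dashed line marks no interaction; the 2219 genes passing toward bladder (blue) lie above it, the 1946 passing toward urethra (orange) below it, and grey genes did not pass.

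Libraries held between 21101269 and 36810672 counts. The first 3 principal components took 34.8%, 29.2% and 16.7% of the variance. Replicate 1 of E14.5 urethra stood apart from the other 3 libraries of its group: its 7 pan-epithelial genes summed to 3662 CPM (counts scaled to library size) against 1657 to 2219 in the others, and its uroplakin values, given below, were higher. Without it 5675 genes passed, and the toward-urethra count rose from 1946 to 3006. Without replicate 1 of E18.5 urethra 2642 passed, 1125 of them toward urethra. The toward-urethra count was 1276 without replicate 4 of E14.5 bladder, 1265 without replicate 2 of E14.5 urethra and 1271 without its replicate 4.

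Markers of several kinds of non-epithelial cell moved with the interaction. The mesenchyme list (16 genes for matrix and its regulators) summed to 1188 to 4874 CPM in E14.5 bladder, 3192 to 7087 in E14.5 urethra, 20000 to 30660 in E18.5 bladder and 4798 to 5817 in E18.5 urethra. The E18.5 bladder libraries lay above all others with no overlap. Toward bladder 15 of the 16 passed and none toward urethra, with a median log2 interaction of 2.94 against -0.01 over all genes. Col1a1, a chain of fibrillar collagen, stood at 837, 311, 1470 and 544 CPM in E14.5 bladder, 492, 598, 1583 and 749 in E14.5 urethra, 9563, 7873 and 6080 in E18.5 bladder and 1292, 1391 and 1514 in E18.5 urethra. It was therefore high in the E18.5 bladder libraries alone, with an interaction of 2.60 ± 0.67 (adjusted p = 0.0159), where ± is the standard error over 14 libraries. Dcn, a small matrix proteoglycan, had 2.96 ± 0.57 (adjusted p = 0.00414), and the intermediate filament gene Vim had 3.03 ± 0.61 (adjusted p = 0.00519). None of the 14 libraries was at 0 for Col1a1, Dcn or Vim. In such bulk samples fewer cells of a type and less RNA per cell cannot be told apart.

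Contractile, vascular and immune markers followed the same pattern, as the plot of marker sums by library shows. Of 10 smooth muscle genes 9 passed toward bladder (median 3.19), and their sum was 5567 to 14450 CPM in E18.5 bladder against 1136 to 2595 in E18.5 urethra and at most 663.7 at E14.5. Myh11, the smooth muscle myosin heavy chain, rose by 5.34 (adjusted p = 8.8e-05) on the log2 scale in bladder, and its interaction was 4.61 ± 0.89 (adjusted p = 0.00431). Endothelial genes passed toward bladder in 9 of 10 (median 3.06), among them the junction gene Pecam1 at 3.42 ± 0.85 (adjusted p = 0.0137). Leukocyte genes passed in 11 of 12 (median 2.81), among them the macrophage receptor Mrc1 at 3.43 ± 0.57 (adjusted p = 0.00223). The collagen list gave 13 toward bladder and 1 toward urethra of 19. Leaving out single E18.5 libraries lowered these counts: smooth muscle to 5 without bladder replicate 1, urethra replicate 1 or urethra replicate 3; endothelium to 4 without bladder replicate 1, urethra replicate 1 or urethra replicate 2; leukocytes to 6 without bladder replicate 1 or urethra replicate 1, and to 7 without bladder replicate 2 or urethra replicate 2. The toward-bladder counts of mesenchyme and collagen moved by less than 1.5 times, and the 1 collagen gene toward urethra became 2 without E14.5 bladder replicate 1.

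Skeletal muscle, erythroid, mesothelial and neural lists held few calls or went both ways. Over all genes 12.1% passed toward bladder and 10.6% toward urethra. Of 11 skeletal muscle genes 1 passed toward bladder and 3 toward urethra (median -1.97), and none passed toward urethra without E18.5 bladder replicate 1 or 2. Of 9 erythroid genes 2 passed toward bladder and none toward urethra (median 1.9), and the 2 ran from 0 to 6 when 1 library was left out. Mesothelial genes gave 2 in each direction of 7, and neural and glial genes 1 of 11, toward urethra.

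**Figure D2:**
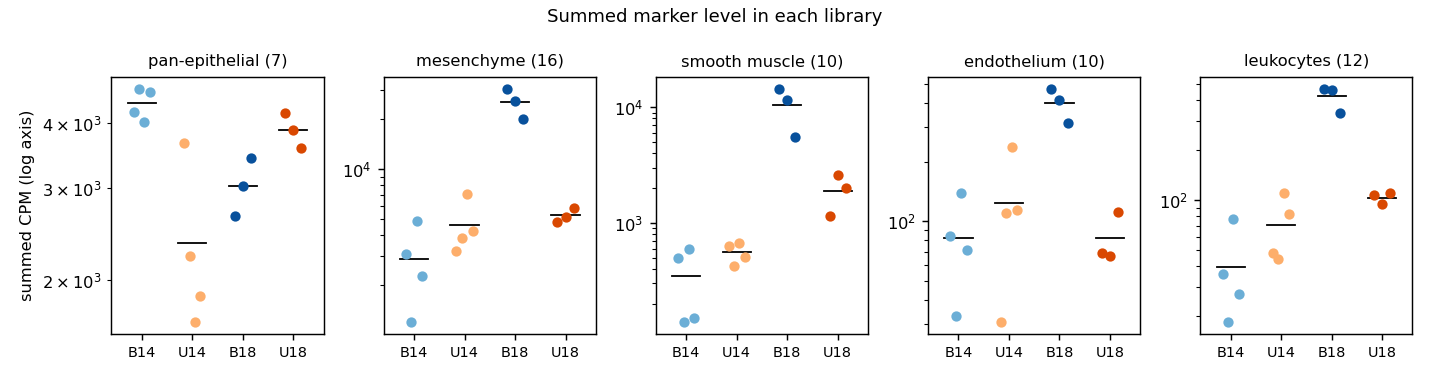
Summed CPM (log axis) of 5 marker lists, with the number of genes in brackets, 1 point per library and a line at the group mean; B is bladder, U is urethra, 14 and 18 the embryonic day. The 3 E18.5 bladder libraries are the highest for the 4 non-epithelial lists, and the group means of the pan-epithelial sum are highest in E14.5 bladder and E18.5 urethra.

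Mast cell genes had the highest median of the 48 lists, 7.43. All of E14.5 bladder held 2 reads of the list member Cma1 and 8 of Cpa3, so this median is imprecise. The summed list differed less, at 61.4 to 108.2 CPM in E14.5 bladder and 57.7 to 139.2 in E14.5 urethra. It was 126.5 to 208.4 in E18.5 bladder and 25.5 to 30.6 in E18.5 urethra. Cma1, a mast cell chymase, stood at 0.0621, 0, 0 and 0 CPM in E14.5 bladder, 0, 0.246, 1.04 and 0 in E14.5 urethra, 42.3, 61.2 and 32.8 in E18.5 bladder and 0.342, 2.41 and 1.57 in E18.5 urethra. Cpa3, the mast cell carboxypeptidase, stood at 45.1, 60.8 and 38.9 CPM in E18.5 bladder and at or below 2.15 in each of the other 11 libraries. Both passed (adjusted p = 0.00369 for each), and no fold is given because some groups held almost no reads. Hdc, which makes histamine, turned over: it was higher in urethra at E14.5 (log2 difference -3.23, adjusted p = 0.0198) and higher in bladder at E18.5 (log2 difference 3.84, adjusted p = 0.0287). Its E14.5 urethra libraries held 2.46, 13.8, 74.7 and 17.7 CPM and its E18.5 bladder libraries 14.9, 18.4 and 12, with an interaction of 7.08 ± 1.60 (adjusted p = 0.00891) that was 8.65 without E14.5 bladder replicate 3 and 5.83 without E14.5 urethra replicate 3. In E14.5 urethra replicate 3, where Hdc was at 74.7 CPM, Cma1 was at 1.04 and Cpa3 at 0.442 CPM. Whether the Hdc of that library came from mast cells was not tested. Of the 8 mast cell genes 5 passed toward bladder. The receptor gene Kit passed toward urethra at -1.13 ± 0.29 (adjusted p = 0.0158), but turned to 0.28 when libraries were scaled to pan-epithelial genes.

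The next 2 measures bear on the later results. First, scaling all libraries to the summed counts of the 7 pan-epithelial genes moved the median interaction of all genes to 1.36. Then 13086 genes passed, 98% of them toward bladder against 53.3% with TMM scaling, and 595 genes passed on the opposite side. Under it the median stage change moved to 0.53 in bladder and -0.84 in urethra, and the median tissue difference to -1.04 at the early stage and 0.39 at the late one. List medians under this scaling are therefore to be read against 1.36, not 0. Second, a score for mesenchyme, the average of log2 CPM over its 16 genes, ran from 4.10 to 6.32 in E14.5 bladder, 5.76 to 7.18 in E14.5 urethra, 7.56 to 8.34 in E18.5 bladder and 6.21 to 6.51 in E18.5 urethra. With this score in the fit 55 genes passed, and 40 of the 4165 kept their call and direction, among them 14 genes named in the text. Every other named gene that passed without the score did not pass with it. At an unadjusted p under 0.05 that fit gave 1683 genes. Since the E18.5 bladder libraries held the 3 highest scores, the score and the interaction cannot be fully told apart, and the part of non-epithelial RNA in genes that lost their call was not tested further.

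The 7 pan-epithelial genes themselves moved toward urethra: 5 passed, with a median of -1.23, or -0.34 with the mesenchyme score. Under pan-epithelial scaling the median was 0.08, a value near 0 by construction, since these genes set that scaling. Epcam, the epithelial adhesion molecule, stood at 428, 477, 431 and 452 CPM in E14.5 bladder, 506, 384, 328 and 349 in E14.5 urethra, 241, 268 and 341 in E18.5 bladder and 609.6, 586 and 546 in E18.5 urethra. The groups overlapped between tissues at E14.5 and were apart at E18.5. Its interaction was -1.23 ± 0.21 (adjusted p = 0.0022) (0.07 under that scaling, which it helps to set). Spint1, a membrane inhibitor of serine proteases, had -1.85 ± 0.37 (adjusted p = 0.00528), and its partner protease St14 had -1.24 ± 0.23 (adjusted p = 0.00326), which was 0.08 under it for the same reason. Without E18.5 urethra replicate 1, 3 of the 7 passed.

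Regulators of urothelial fate went mostly toward urethra under TMM scaling. Of 18 tested, 12 passed toward urethra and 1 toward bladder (median -1.35, -0.08 under pan-epithelial scaling and -0.23 with the mesenchyme score, where Klf4 alone passed). With stage 8 fell in bladder and 8 rose in urethra, against 3724 and 3147 of all 18286 genes. Under pan-epithelial scaling 4 passed toward bladder and 3 toward urethra, against 12819 and 267 of all 18286 genes. The list median of -0.08 lay below the 1.36 of all genes. The stage changes then were 1 rise and 2 falls in bladder, and 3 rises and 6 falls in urethra. The urethral majority thus turned over, while the median urethral change of all genes moved to -0.84. Leaving out E14.5 bladder replicate 4, E14.5 urethra replicate 2 or 4, or E18.5 bladder replicate 1, urethra replicate 1 or urethra replicate 3 lowered the 12 to between 5 and 7.

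Elf5, an ETS factor of glandular and squamous epithelia, moved farthest in this list. It stood at 42, 57.9, 47.2 and 53.2 CPM in E14.5 bladder, 74.8, 36.6, 16.8 and 34.7 in E14.5 urethra, 9.52, 7.73 and 7.19 in E18.5 bladder and 61.5, 51.6 and 60.8 in E18.5 urethra. Only the E18.5 bladder libraries were low, and they overlapped no other group; the interaction was -3.13 ± 0.50 (adjusted p = 0.00184) and -1.93 under pan-epithelial scaling. Klf5, a zinc finger factor needed for urothelial maturation, changed in opposite directions: it fell in bladder (log2 change -1.01, adjusted p = 0.00483) and rose in urethra (log2 change 0.76, adjusted p = 0.0251), with an interaction of -1.77 ± 0.33 (adjusted p = 0.00383). Under pan-epithelial scaling the urethral change of Klf5 was 0.06 (adjusted p = 0.753). Foxa1, a forkhead factor that opens chromatin in urothelium, fell in bladder (log2 change -0.92, adjusted p = 0.00432), and rose in urethra by 0.60 (adjusted p = 0.0428). Under pan-epithelial scaling the rise turned sign and the fall did not pass (-0.40, adjusted p = 0.0683). The interaction of Foxa1 was -1.51 ± 0.30 (adjusted p = 0.00456), and that of the AP-2 factor Tfap2c was -1.52 ± 0.38 (adjusted p = 0.0148). Under pan-epithelial scaling neither interaction passed (Foxa1 -0.25, Tfap2c -0.26).

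Klf4 was the exception. This factor of terminal epithelial differentiation (GRCm38 chromosome 4, 55527143 to 55532466) stood at 24.2, 23.5, 20.9 and 18.53 CPM in E14.5 bladder, 29.1, 24.2, 23.3 and 25.4 in E14.5 urethra, 179.7, 139 and 142 in E18.5 bladder and 41.8, 50.7 and 49.2 in E18.5 urethra. The tissues overlapped at E14.5, and at E18.5 every bladder library lay above every urethral one. It rose in both tissues, by 2.82 (adjusted p = 1.81e-07) in bladder and 0.89 (adjusted p = 0.000386) in urethra, the latter 0.08 (adjusted p = 0.779) under pan-epithelial scaling. The interaction was 1.93 ± 0.18 (adjusted p = 0.00010), 3.29 under pan-epithelial scaling and 2.02 (adjusted p = 0.0252) with the mesenchyme score.

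**Figure D3:**
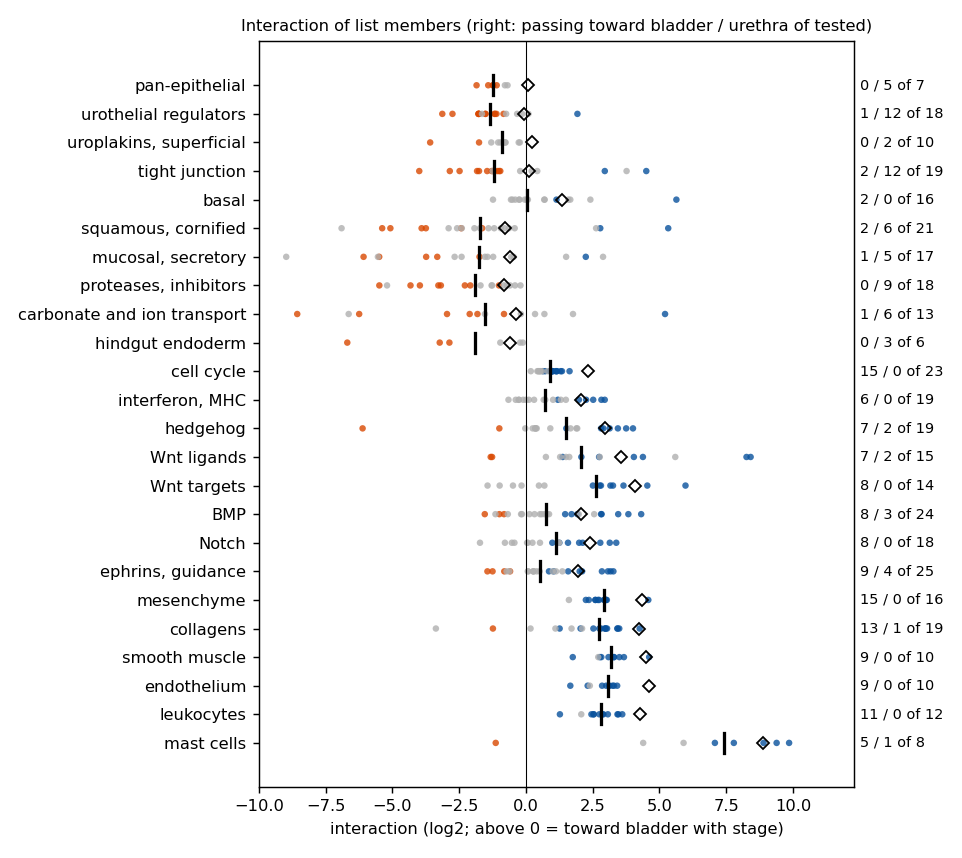
Log2 interaction of each member of 24 gene lists (points: blue passing toward bladder, orange passing toward urethra, grey not passing), with the list median (bar) and its median under pan-epithelial scaling (diamond); counts passing toward bladder and toward urethra of those tested are at the right. The 6 non-epithelial lists at the bottom have medians between 2.75 and 7.43, and every diamond lies to the right of its bar, as the median of all genes moved to 1.36 under that scaling.

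Tight junction genes, which seal the paracellular space, gave 12 toward urethra and 2 toward bladder of 19 (median -1.19, 0.12 under pan-epithelial scaling and -0.30 with the mesenchyme score). In bladder 8 fell and 3 rose, and in urethra 11 rose and 1 fell. Of all 18286 genes, 3724 fell and 3630 rose in bladder, and 3147 rose and 2865 fell in urethra. Under pan-epithelial scaling most calls ran the other way: 6 rose and 3 fell in bladder, 4 rose and 6 fell in urethra, and 6 interactions passed toward bladder against 2 toward urethra. Of all 18286 genes, 12819 passed toward bladder there and 267 toward urethra. The list median of 0.12 lay below the 1.36 of all genes. Ocln, the strand protein occludin, stood at 130.5, 166, 150.2 and 181 CPM in E14.5 bladder, 111, 76.3, 70.8 and 68.9 in E14.5 urethra, 65.6, 77.6 and 92.6 in E18.5 bladder and 138, 158 and 119 in E18.5 urethra. The bladder libraries were the higher at E14.5 and the lower at E18.5, with no overlap at either stage, although the E14.5 difference and the urethral rise turned sign under pan-epithelial scaling. The interaction was -1.75 ± 0.26 (adjusted p = 0.00104), and -0.46 (adjusted p = 0.094) under that scaling. The scaffold gene Tjp3 had -2.48 ± 0.38 (adjusted p = 0.00151). Without E18.5 urethra replicate 1 or 2, 1 gene of the list passed toward bladder.

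Claudins, which set the selectivity of the junction, split. Cldn3 stood at 16.2, 36.2, 51.5 and 32 CPM in E14.5 bladder, 89, 38.5, 47.5 and 34.5 in E14.5 urethra, 3.33, 13.6 and 8.12 in E18.5 bladder and 198, 254 and 169 in E18.5 urethra. The 3 urethral libraries at E18.5 lay above all others and the 3 bladder libraries below all others, an interaction of -3.99 ± 0.67 (adjusted p = 0.00222). Cldn7 moved the same way at -1.28 ± 0.23 (adjusted p = 0.00271), as did the tricellular junction gene Marveld2 at -1.21 ± 0.20 (adjusted p = 0.00227), although these turned to 0.07 and 0.12 under pan-epithelial scaling. Cldn10, a pore-forming claudin, went toward bladder. It was at 9.43, 7.08 and 6.4 CPM in E18.5 bladder and at or below 2.73 in every other library, with 4.51 ± 0.77 (adjusted p = 0.00237). Dsc2, a cadherin of desmosomes, went toward urethra at -2.27 ± 0.37 (adjusted p = 0.00212).

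The uroplakins showed little interaction with all libraries included. Upk2 stood at 948, 850, 642 and 849.9 CPM in E14.5 bladder, 204, 79.8, 81.6 and 31.6 in E14.5 urethra, 841, 1200 and 1206 in E18.5 bladder and 136, 137 and 187 in E18.5 urethra. Bladder was higher at both stages with no overlap, by 3.05 and 2.82 on the log2 scale, and the interaction was -0.23 ± 0.61 (adjusted p = 0.825). Of 10 uroplakin and superficial cell genes 2 passed, both toward urethra (median -0.88, 0.23 under pan-epithelial scaling). These were Gsdmc, a gasdermin, at -3.58 ± 0.65 (adjusted p = 0.00317), and the uroplakin-like gene Upk3bl at -1.75 ± 0.52 (adjusted p = 0.029). Gsdmc fell in bladder and rose in urethra, and reached -4.19 without E14.5 urethra replicate 1. Upk3bl lost its call (adjusted p 0.052 to 0.0807) without E14.5 bladder replicate 2, E14.5 urethra replicate 2 or 4, E18.5 bladder replicate 1 or E18.5 urethra replicate 1 or 2, under pan-epithelial scaling (-0.58, adjusted p = 0.123) and with no filter on low counts.

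This result rested on E14.5 urethra replicate 1. That library held 204 CPM of Upk2, 529 of Upk1a and 707 of Upk1b, each above its 3 companions. Upk1a, a tetraspanin partner of the uroplakin plaque, was at 529, 126, 107 and 83.3 CPM in the E14.5 urethra libraries. Without the first library 8 of the 10 genes passed toward urethra. Upk1a was then at -1.76 (adjusted p = 0.00167) and Upk1b at -1.64 (0.00183), against -0.76 and -0.78 with all libraries. Under pan-epithelial scaling Upk1a, Upk1b and Upk2 turned sign to 0.26, 0.27 and 0.90, none of them passing.

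Many genes of mucosal surfaces, ion transport and surface proteases passed toward urethra, some by large values. Of 18 proteases and inhibitors 9 passed toward urethra and none toward bladder (median -1.89, -0.82 under pan-epithelial scaling, -0.98 with the mesenchyme score). Of 13 carbonate and ion transport genes 6 passed toward urethra and 1 toward bladder (median -1.53), and of 17 mucosal genes 5 and 1 (median -1.74). Under pan-epithelial scaling the protease list gave 6 toward urethra and none toward bladder. Ion transport gave 3 and 4 (median -0.38), so that the majority of its calls turned, and the mucosal list 5 and 4 (median -0.58). Of all 18286 genes, 267 passed toward urethra and 12819 toward bladder there. The medians of these lists lay below the 1.36 of all genes. Without E14.5 urethra replicate 1 the mucosal count toward urethra was 11. Squamous and cornified genes gave 6 toward urethra and 2 toward bladder of 21 (median -1.72), and 14 toward urethra without that same library. The few calls toward bladder were less stable: the 2 squamous ones became 1 without any single library other than E14.5 bladder replicate 2, E14.5 urethra replicates 1 and 2 and E18.5 urethra replicate 3, and the mucosal one was lost without any single library other than E14.5 bladder replicate 3 and the 4 of E14.5 urethra.

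Slc26a9, a chloride and bicarbonate transporter (GRCm38 chromosome 1, 131744022 to 131771504), traded places between the tissues. It stood at 2.08, 6.89, 5.2 and 8.74 CPM in E14.5 bladder, 0.44, 0.328, 0.281 and 0.0788 in E14.5 urethra, 0.476, 0.229 and 0.0984 in E18.5 bladder and 3.89, 7.73 and 3.64 in E18.5 urethra. Bladder was high and urethra low at E14.5, and the reverse held at E18.5, with no overlap at either stage. The tissue difference went from 4.33 (adjusted p = 0.000104) to -4.23 (adjusted p = 0.000562). Its interaction of -8.56 ± 0.90 (adjusted p = 0.000209) was -9.24 without E18.5 bladder replicate 1, -7.25 under pan-epithelial scaling and -7.63 (adjusted p = 0.0264) with the mesenchyme score. All of E14.5 urethra held 27 reads of this gene and E18.5 bladder 18, so the size of these values is imprecise.

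Tspan1, a tetraspanin of secretory epithelia (GRCm38 chromosome 4, 116161869 to 116167601), made the same crossing. It held 59.3, 57.6, 75.5 and 40.8 CPM in E14.5 bladder, 36.1, 19.9, 17 and 15.4 in E14.5 urethra, 3.71, 6.25 and 8.42 in E18.5 bladder and 116, 142 and 106 in E18.5 urethra. No groups overlapped, and it fell in bladder (log2 change -3.25, adjusted p = 3.48e-05) while it rose in urethra (log2 change 2.45, adjusted p = 0.000263). The interaction was -5.70 ± 0.47 (adjusted p = 6.42e-05) and kept its call with the mesenchyme score (-5.31, adjusted p = 0.0157). Car2, a carbonic anhydrase, also crossed, from 1.56 at E14.5 to -1.39 at E18.5, with -2.95 ± 0.32 (adjusted p = 0.000246).

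Vil1, an actin bundler of microvilli, was low at E14.5 and high in E18.5 urethra alone. Its E18.5 urethra libraries held 24.6, 25.1 and 19.4 CPM and the other 11 at most 3.67, an interaction of -6.69 ± 0.64 (adjusted p = 0.000129), or -7.33 without E14.5 urethra replicate 1. Reg3g, an antibacterial lectin, did likewise with 30.3, 22.4 and 28.1 CPM in E18.5 urethra and at most 2.99 elsewhere, and -6.08 ± 0.73 (adjusted p = 0.000382). Scnn1a, the alpha subunit of the epithelial sodium channel, held 51.2, 53.3 and 41.5 CPM in E18.5 urethra against 3, 3.96 and 4.33 in E18.5 bladder, with -3.39 ± 0.50 (adjusted p = 0.00108). Tmprss4, a membrane serine protease, had -3.28 ± 0.47 (adjusted p = 0.000951). Lypd2, a small surface protein of the Ly6 family, fell in bladder (log2 change -4.39, adjusted p = 4.73e-05) and had -5.49 ± 0.63 (adjusted p = 0.000324). These 5 genes stayed on the same side of 0 under pan-epithelial scaling.

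Other genes of this kind were larger without E14.5 urethra replicate 1. Clca1, a secreted regulator of chloride conductance, was at 426, 108, 46.8 and 99.9 CPM in E14.5 urethra, 1420, 1886 and 864 in E18.5 urethra and 24.8, 56.2 and 12 in E18.5 bladder. Its interaction of -6.24 ± 1.02 (adjusted p = 0.00204) was -7.25 without that library and -7.04 without E18.5 bladder replicate 2. Krt13, a keratin of squamous mucosa, was at 698, 1114 and 519 CPM in E18.5 urethra and 8.71, 18 and 5.81 in E18.5 bladder, and at or below 5.50 in all E14.5 libraries. It rose in both tissues, and its interaction of -5.38 ± 1.17 (adjusted p = 0.00733) was -7.61 without E14.5 urethra replicate 1 and -6.01 without E18.5 bladder replicate 2. Arg1, an arginase, was urethra-high at both stages and more so at E18.5, with -5.32 ± 1.18 (adjusted p = 0.00817), or -6.82 without E14.5 urethra replicate 1. Lor, which codes for the cornified envelope protein loricrin, fell in bladder (log2 change -3.80, adjusted p = 0.000235) with no passing change in urethra, and had -3.90 ± 0.70 (adjusted p = 0.00304).

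**Figure D4:**
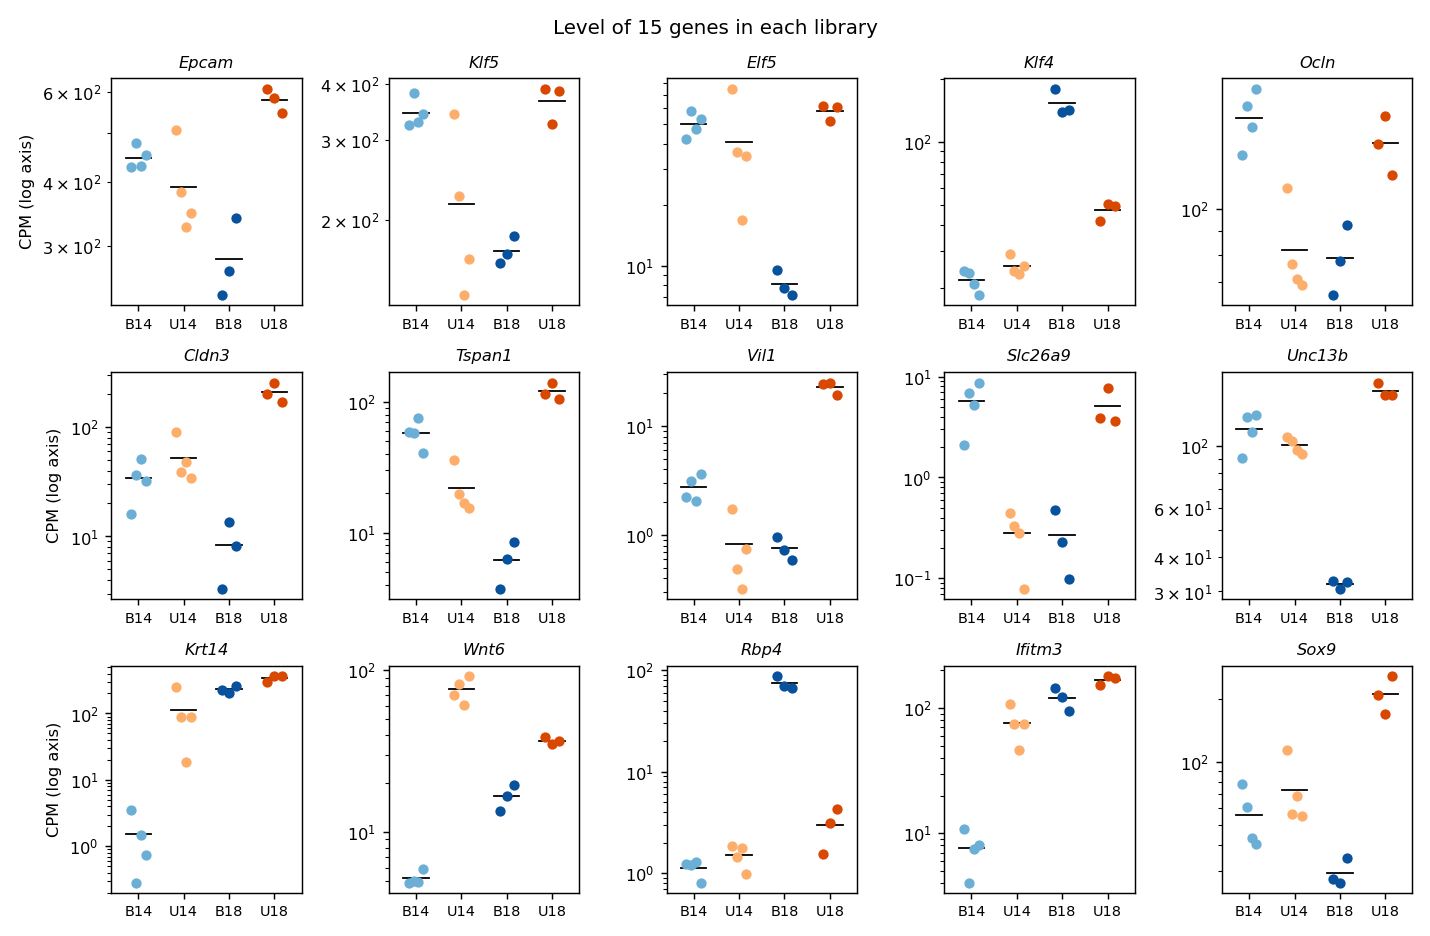
CPM (log axis) of 15 genes, 1 point per library and a line at the group mean; B is bladder, U is urethra, 14 and 18 the embryonic day. Slc26a9 and Tspan1 are high in E14.5 bladder and E18.5 urethra, Krt14 and Ifitm3 are low in E14.5 bladder alone, and Klf4 and Rbp4 are high in E18.5 bladder alone.

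Of 16 basal cell genes 2 passed, Krt14 and Cdh3, both toward bladder, a share close to the 12.1% of all genes. Krt14, a basal keratin (GRCm38 chromosome 11, 100203162 to 100207548), stood at 3.54, 0.285, 1.47 and 0.74 CPM in E14.5 bladder, 250.1, 89.3, 18.7 and 87.4 in E14.5 urethra, 226, 203 and 262 in E18.5 bladder and 301, 361 and 363 in E18.5 urethra. E14.5 bladder alone lay low. The bladder minus urethra difference was -6.20 (adjusted p = 9.06e-05) at E14.5 and did not pass at E18.5 (log2 difference -0.57, adjusted p = 0.575). Its interaction of 5.63 ± 1.05 (adjusted p = 0.00368) was 6.59 without E14.5 bladder replicate 1 and 4.86 without E14.5 urethra replicate 1. Krt5, the partner keratin, gave 2.41 ± 0.97 (adjusted p = 0.0912), and 3.62 (adjusted p = 0.00429) without E14.5 bladder replicate 1. The E14.5 bladder libraries held 567, 143, 58.3 and 72.1 CPM of Krt5, the first well above the rest. Cdh3, the P-cadherin of basal cells, was urethra-high at both stages, and less so at E18.5. It fell in urethra (log2 change -0.78, adjusted p = 0.000392), and its interaction was 1.14 ± 0.15 (adjusted p = 0.000658). The list median was 0.05 (1.35 under pan-epithelial scaling, close to the shift of all genes). Without E14.5 bladder replicate 1, 4 passed toward bladder; without E14.5 urethra replicate 1, 2 passed toward bladder and 2 toward urethra.

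In the hedgehog pathway the epithelial ligands went toward urethra and the target genes toward bladder, although the ligand Shh turned sign under pan-epithelial scaling. Of 19 genes 7 passed toward bladder and 2 toward urethra (median 1.51). Shh, the main ligand, was at 172, 180.4 and 226 CPM in E18.5 bladder and between 278 and 495 in all other libraries. It fell in bladder (log2 change -1.08, adjusted p = 0.000672; -0.56, adjusted p = 0.0767 under pan-epithelial scaling), and its interaction of -0.99 ± 0.26 (adjusted p = 0.0169) lost its call without E18.5 urethra replicate 1 (adjusted p = 0.0521) and turned to 0.34 under pan-epithelial scaling. Ihh, the second ligand, was at 34.3, 123, 110.3 and 127 CPM in E14.5 bladder and 3, 0.762 and 0.689 in E18.5 bladder. In urethra it was at 13.5, 31.7, 44.4 and 8.36 and then 31.7, 20.9 and 23.3, and the interaction of -6.11 ± 0.93 (adjusted p = 0.00142) was -7.14 without E18.5 bladder replicate 1.

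Ptch1, the hedgehog receptor and a direct target of the pathway (GRCm38 chromosome 13, 63508328 to 63573598), crossed the other way. It stood at 66.7, 80.3, 95 and 109 CPM in E14.5 bladder, 166, 315, 347 and 317 in E14.5 urethra, 354, 280.1 and 246 in E18.5 bladder and 118, 87.5 and 122 in E18.5 urethra. Urethra was the higher at E14.5 and bladder at E18.5, with no overlap at either stage. It rose in bladder (log2 change 1.74, adjusted p = 0.000147) and fell in urethra (log2 change -1.39, adjusted p = 0.00157), with an interaction of 3.14 ± 0.35 (adjusted p = 0.000263). The transcription factor Gli1 crossed as well at 3.75 ± 0.65 (adjusted p = 0.00258), as did Hhip, which binds and restrains the ligands, at 3.44 ± 0.57 (adjusted p = 0.00212). Unlike Ptch1, both overlapped between the tissues at E14.5. Urethra replicate 1 held 14.2 CPM of Gli1 and 9.02 of Hhip there, and bladder replicate 3 held 17.8 and 9.67. Without E18.5 bladder replicate 1, 4 genes of the pathway passed toward bladder. With the mesenchyme score the list median was 0.05 and none passed, with 1 toward bladder and 3 toward urethra at an unadjusted p under 0.05. Ptch1 was then at 2.41 (adjusted p = 0.118).

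Wnt ligands, secreted factors that stabilise beta-catenin, gave 7 toward bladder and 2 toward urethra of 15 (median 2.08). Wnt6 (GRCm38 chromosome 1, 74771892 to 74785322) stood at 4.87, 4.95, 4.93 and 5.92 CPM in E14.5 bladder, 70.6, 82.2, 61.1 and 91.6 in E14.5 urethra, 13.5, 16.8 and 19.6 in E18.5 bladder and 38.6, 35 and 36.6 in E18.5 urethra. The 4 groups did not overlap, and urethra was the higher at both stages, with bladder minus urethra at -3.88 and then -1.14. It rose in bladder and fell in urethra, so the tissues drew together, with 2.74 ± 0.21 (adjusted p = 6.42e-05). With the mesenchyme score it was 3.02 (adjusted p = 0.013), the only ligand to pass there. Wnt10b was at 10.9, 7.01, 4.78 and 7.8 CPM in E14.5 urethra, had 2 reads in all of E14.5 bladder, and was at 4.62, 3.01 and 1.23 in E18.5 bladder and 2.73, 2.47 and 5.09 in E18.5 urethra. Its interaction passed (adjusted p = 0.000279), and no fold is given at so low a count. Wnt7b, an epithelial ligand, went toward urethra at -1.32 ± 0.31 (adjusted p = 0.0114), as did Wnt4, a ligand of kidney and genital duct development. Under pan-epithelial scaling Wnt7b was at -0.04 (adjusted p = 0.887), and no ligand passed toward urethra. Only 1 ligand passed toward urethra without any single library other than E14.5 bladder replicate 3 or E14.5 urethra replicate 1.

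Of 14 Wnt target genes 8 passed toward bladder and none toward urethra (median 2.64). Notum, a secreted enzyme that inactivates Wnt ligands, stood at 1.43, 0.968, 1.01 and 2.32 CPM in E14.5 bladder, 2.95, 17.5, 18.4 and 21.2 in E14.5 urethra, 27.5, 17.7 and 15.7 in E18.5 bladder and 3.33, 3.91 and 2.83 in E18.5 urethra. It was urethra-high at E14.5 and bladder-high at E18.5 without overlap, with 5.98 ± 0.77 (adjusted p = 0.000604). Axin2, a feedback inhibitor, had 2.76 ± 0.46 (adjusted p = 0.0022), and the DNA-binding partner of beta-catenin Lef1 had 3.26 ± 0.75 (adjusted p = 0.00968). The feedback inhibitor Nkd1 had 3.65 ± 0.63 (adjusted p = 0.00261), and the related factor Tcf7 2.81 ± 0.50 (adjusted p = 0.0031). In these genes E14.5 urethra replicate 1 lay below its 3 companions, as it did for Gli1 and Ptch1. With the mesenchyme score the median was 0.58 and none passed, with 1 in each direction at an unadjusted p under 0.05.

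BMP pathway genes gave 8 toward bladder and 3 toward urethra of 24 (median 0.75). The ligand Bmp4 crossed from -1.90 at E14.5 to 1.94 at E18.5. Its libraries held 16.7, 12.2, 22.9 and 17.8 CPM in E14.5 bladder, 17.8, 72.6, 94.4 and 73.8 in E14.5 urethra, 102, 69.1 and 71.4 in E18.5 bladder and 19.2, 22.9 and 21.3 in E18.5 urethra, with 3.84 ± 0.58 (adjusted p = 0.00138). Id1, a target of BMP signalling, crossed in the opposite direction. It stood at 318, 366, 324 and 387 CPM in E14.5 bladder, 195, 156, 143 and 146 in E14.5 urethra, 194, 181 and 208 in E18.5 bladder and 259, 286 and 233 in E18.5 urethra. Bladder was the higher at E14.5 and the lower at E18.5, with an interaction of -1.54 ± 0.17 (adjusted p = 0.00025) and -0.20 (adjusted p = 0.466) under pan-epithelial scaling, where neither tissue difference passed.

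Among other signals, the Notch ligand Jag1 rose in bladder (log2 change 1.72, adjusted p = 0.000792) and had 1.99 ± 0.43 (adjusted p = 0.00733). Spry1, which restrains FGF signalling, rose in bladder (log2 change 1.87, adjusted p = 6.13e-05) and had 2.04 ± 0.32 (adjusted p = 0.00169), and the FGF receptor Fgfr3 fell in bladder (log2 change -0.99, adjusted p = 0.00314) and had -1.35 ± 0.30 (adjusted p = 0.00858). Under pan-epithelial scaling the bladder fall of Fgfr3 (-0.47, adjusted p = 0.0593) and its interaction (-0.08, adjusted p = 0.796) did not pass. The semaphorins, which guide axons and vessels, split: Sema3a crossed toward bladder at 3.07 ± 0.36 (adjusted p = 0.000324), and Sema3f crossed toward urethra at -1.44 ± 0.25 (adjusted p = 0.00261), although under pan-epithelial scaling its E14.5 difference turned sign and its interaction was -0.16 (adjusted p = 0.523). In the list of ephrins and guidance genes 9 passed toward bladder and 4 toward urethra of 25 (median 0.52).

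**Figure D5:**
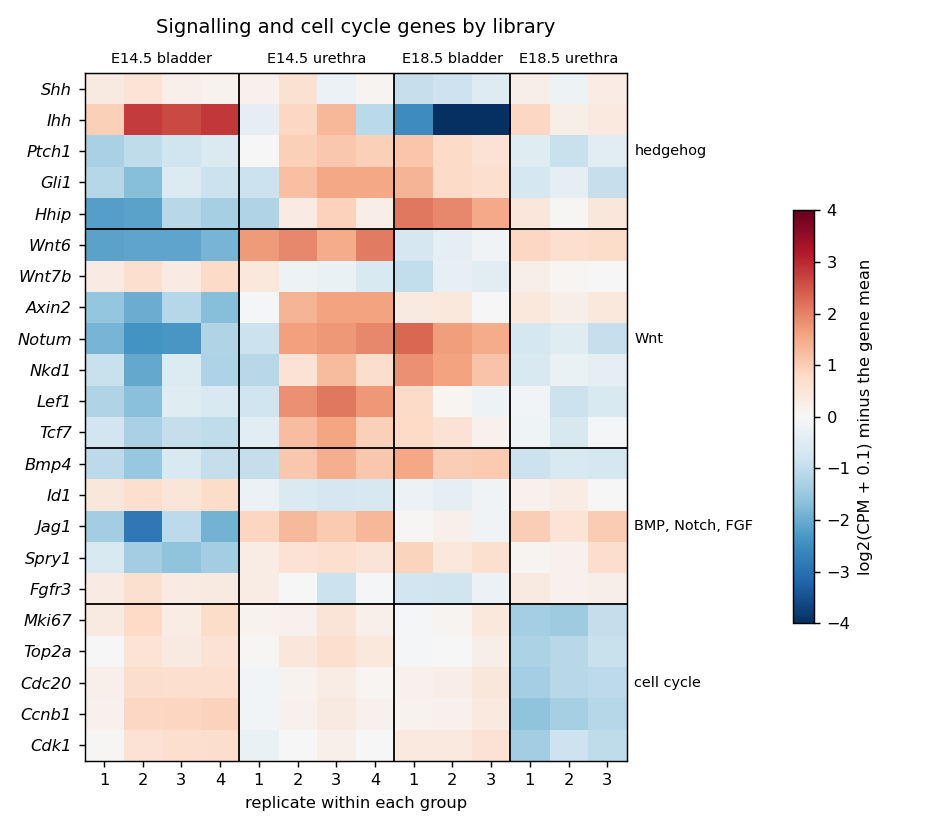
Each cell is log2(CPM + 0.1) minus the mean of that gene, for 22 signalling and cell cycle genes (rows) in 14 libraries (columns, by group). Ptch1, Gli1, Notum and Bmp4 are high in E14.5 urethra replicates 2 to 4 and in E18.5 bladder, and the 5 cell cycle genes are low in the 3 E18.5 urethra libraries alone.

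Of 30 patterning factors 3 passed toward bladder and 5 toward urethra (median -0.57, 0.79 under pan-epithelial scaling). Over all genes 12.1% passed toward bladder and 10.6% toward urethra, so the list as a whole stood little apart. Without E14.5 bladder replicate 2 or 4, E14.5 urethra replicate 2 or 4, any E18.5 bladder library, or E18.5 urethra replicate 1 or 3, between 1 and 3 passed toward urethra. Without E14.5 bladder replicate 2 or E18.5 urethra replicate 1 or 3, 1 passed toward bladder. Some regional regulators are given here one by one. Sox9, a factor of budding and progenitor epithelia, held 78.6, 61.1, 43.1 and 40.3 CPM in E14.5 bladder, 114, 56.3, 68.4 and 55 in E14.5 urethra, 27.5, 26.6 and 34.6 in E18.5 bladder and 208, 168 and 256 in E18.5 urethra. It overlapped between the tissues at E14.5 and was apart at E18.5, with -2.44 ± 0.40 (adjusted p = 0.00216). Hoxb13, a posterior homeobox gene, fell in bladder (log2 change -2.19, adjusted p = 0.000122) and had -1.71 ± 0.39 (adjusted p = 0.00908). Foxc1, a forkhead factor, had -1.57 ± 0.21 (adjusted p = 0.000692). Pitx1, a homeobox gene of hindlimb and pituitary, went toward bladder at 2.30 ± 0.60 (adjusted p = 0.0167), and its 3 E18.5 bladder libraries (122, 88 and 72.2 CPM) lay above all others. Under pan-epithelial scaling Hoxb13 and Foxc1 were at -0.35 and -0.22, neither passing, and Sox9 at -1.19, passing.

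Cell cycle genes went toward bladder, and fell in urethra. Of 23 tested 15 passed toward bladder and none toward urethra (median 0.92). In urethra 21 of the 23 fell with stage and in bladder 10 did, against 2865 and 3724 of all 18286 genes. At E14.5 10 were higher in bladder and 1 lower, and at E18.5 21 were higher. Of all genes, 4451 and 3453 were higher in bladder at these stages. Under pan-epithelial scaling 21 fell in urethra and none in bladder, while the median stage change of all genes moved to -0.84 in urethra and 0.53 in bladder. At E14.5 none was then higher in bladder and 15 were lower, where the median of all genes was -1.04. Top2a, the topoisomerase of dividing cells, stood at 277, 407, 353 and 411 CPM in E14.5 bladder, 286, 377, 437 and 370.1 in E14.5 urethra, 266, 278 and 322 in E18.5 bladder and 116, 127 and 149 in E18.5 urethra. The 3 E18.5 urethra libraries lay below all 11 others, with 1.17 ± 0.23 (adjusted p = 0.00421). Mki67, the proliferation marker Ki-67, had 1.11 ± 0.23 (adjusted p = 0.00591); Cdc20, which starts anaphase, had 1.00 ± 0.19 (adjusted p = 0.00426); the cyclin Ccnb1 had 1.00 ± 0.24 (adjusted p = 0.0125), and its kinase Cdk1 0.98 ± 0.24 (adjusted p = 0.0117). Leaving out 1 library gave between 12 and 17. With the mesenchyme score the median was 0.94, and 12 members lay toward bladder at an unadjusted p under 0.05. In that fit the 1 call was the cyclin Ccnd1, toward urethra.

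Since these genes moved together, the promoters of 3 of them are shown. They have the smallest p among passing cell cycle genes that hold both a CCAAT box and the letters TTTGAA, a form of the cell cycle gene homology region, in the last 120 bases before the transcription start. Promoters on a single chromosome were left out before this choice. Sequences and starts are RefSeq's on GRCm38.p6, written 5′ to 3′ on the strand of the gene, and capitals mark CCAAT and TTTGAA on either strand (ATTGG and TTCAAA on the other).
Top2a (chr11:99024190-99024309, minus strand): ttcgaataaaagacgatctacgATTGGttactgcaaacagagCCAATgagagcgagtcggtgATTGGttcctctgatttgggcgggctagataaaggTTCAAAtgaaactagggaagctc
Cdc20 (chr4:118437344-118437463, minus strand): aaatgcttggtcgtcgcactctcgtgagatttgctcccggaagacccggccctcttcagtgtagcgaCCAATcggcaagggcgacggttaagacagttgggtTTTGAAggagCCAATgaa
Cdk1 (chr10:69352913-69353032, minus strand): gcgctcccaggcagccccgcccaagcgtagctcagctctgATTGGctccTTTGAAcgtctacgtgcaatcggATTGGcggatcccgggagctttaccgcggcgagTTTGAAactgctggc
Over the 250 bases before the start, CCAAT was found in 12 of the 13 passing cell cycle genes with a promoter in the table, in 16 of 20 genes of the list, and in 33.8% of all 32851 promoters. TTTGAA was found in 5 of the 13, in 6 of the 20, and in 16% of all promoters. A gene of the list was counted if any of its promoters held the motif, while the share of all promoters counts each one singly. A gene with several promoters has more chances of a match, so the gene and promoter shares are not like for like. These 2 motifs do not overlap each other in letters, and a match is a description of the sequence, not of binding.

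Interferon-linked and antigen presentation genes gave 6 toward bladder and none toward urethra of 19 (median 0.72). Ifitm3, an antiviral membrane protein, stood at 10.9, 4.04, 7.55 and 8.1 CPM in E14.5 bladder, 108, 74.8, 46.5 and 74.5 in E14.5 urethra, 144, 122 and 94 in E18.5 bladder and 152, 179 and 174 in E18.5 urethra. E14.5 bladder alone was low, and the gene rose in both tissues, with 2.83 ± 0.43 (adjusted p = 0.00134), although under pan-epithelial scaling its urethral rise did not pass (0.42, adjusted p = 0.216). B2m, the light chain of class I molecules, rose more in bladder (log2 change 1.66, adjusted p = 2.58e-06) than in urethra (log2 change 0.46, adjusted p = 0.00967), and the urethral rise turned sign under pan-epithelial scaling; its interaction was 1.20 ± 0.17 (adjusted p = 0.000837). With the mesenchyme score 4 members lay toward bladder at an unadjusted p under 0.05 and none passed. The leukocyte sums given above rose in the same E18.5 bladder libraries, and their part in this result was not tested.

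Retinoid genes gave 4 toward bladder and 3 toward urethra of 16 (median 0.61), steroid genes 4 and 1 of 15 (median -0.18), and glucocorticoid response genes 2 and 2 of 12 (median 0.29). These small counts are to be read against the 12.1% of all genes that passed toward bladder and 10.6% toward urethra. Rbp4, the carrier of retinol (GRCm38 chromosome 19, 38116629 to 38125281), stood at 87.3, 70.7 and 66.2 CPM in E18.5 bladder, 1.54, 3.09 and 4.31 in E18.5 urethra and at most 1.85 in the E14.5 libraries. Its interaction was 5.04 ± 0.44 (adjusted p = 6.77e-05), and 4.68 (adjusted p = 0.0252) with the mesenchyme score. Hsd11b1, which regenerates active glucocorticoid, was at 46.9, 51.8 and 42.6 CPM in E18.5 bladder and at or below 1.68 in every other library, with 6.63 ± 1.15 (adjusted p = 0.00261), or 8.36 without E14.5 bladder replicate 3. All of E14.5 bladder held 9 reads of this gene and E14.5 urethra 20, so these values are imprecise. Of the glucocorticoid targets, Tsc22d3 went toward bladder at 2.56 ± 0.36 (adjusted p = 0.00086). Sgk1, a kinase that raises sodium channel activity, went toward urethra at -1.14 ± 0.21 (adjusted p = 0.00319), and turned to 0.28 under pan-epithelial scaling; with the mesenchyme score it was -1.72 (adjusted p = 0.0323).

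Of the 40 genes that kept call and direction with the mesenchyme score, 16 lay toward bladder and 24 toward urethra. Besides Klf4, Wnt6, Rbp4, Slc26a9, Tspan1, Vil1, Lypd2, Car2 and Sgk1, they included 5 more genes described here. Unc13b, which primes vesicles for release (GRCm38 chromosome 4, 43058953 to 43264871), had the smallest adjusted p with the score. It stood at 90.8, 128, 113 and 129.7 CPM in E14.5 bladder, 108, 104, 96.9 and 93.9 in E14.5 urethra, 32.9, 30.7 and 32.5 in E18.5 bladder and 169.6, 152 and 153 in E18.5 urethra. The tissues overlapped at E14.5, and at E18.5 bladder lay below all other libraries and urethra above them. The interaction was -2.50 ± 0.16 (adjusted p = 1.38e-05), and -2.11 (adjusted p = 0.00918) with the score.

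The other 4 went toward bladder. Pltp, which transfers phospholipids, was low in E14.5 bladder alone, at 17.8, 12.8, 14.1 and 15.3 CPM against 62.7 or more in every other library, with 2.85 ± 0.28 (adjusted p = 0.000141). Aldh2, the mitochondrial aldehyde dehydrogenase, crossed from urethra-high to bladder-high, with 2.31 ± 0.20 (adjusted p = 6.94e-05). Igsf10, a secreted protein of the immunoglobulin superfamily, crossed too, with 3.08 ± 0.27 (adjusted p = 6.77e-05). Pamr1, a secreted protein with a protease-like domain, held 2.11, 0.683, 2.21 and 0.807 CPM in E14.5 bladder, 4.8, 9.72, 12.6 and 13.1 in E14.5 urethra, 77.2, 64.9 and 50.4 in E18.5 bladder and 7.65, 12.1 and 10.9 in E18.5 urethra, and crossed with 5.46 ± 0.60 (adjusted p = 0.000263). With the score Pltp was at 2.97, Aldh2 at 2.10, Igsf10 at 2.37 and Pamr1 at 2.77. The secreted protease Htra1 crossed without the score at 5.19 ± 0.69 (adjusted p = 0.000714), but did not pass with the score (adjusted p = 0.258).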

How the data were processed

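RNA-seq of 14 libraries was analysed. The authors deposited gene counts, 1 table per stage, which were joined on gene identifiers; all values were whole numbers. Per the submitters' processing notes, bcl2fastq, HISAT2 2.2.1 and SAMtools 1.9 were used with GRCm38; no source used here names the counting tool or its strand setting, so overlapping antisense genes may share reads. No reads were counted for any of 37 mitochondrial genes. Genes were kept by edgeR's filterByExpr (minimum count 10, minimum total 15), libraries scaled by TMM, and 1 model with 4 group means fitted to all 14 libraries with edgeR 4.0.16 in R 4.3.3 (quasi-likelihood F test). Every p is Benjamini-Hochberg adjusted over all genes tested unless said otherwise, and the threshold was 0.05. CPM use TMM-scaled library sizes. The samples are labelled as separate samples of pooled litters, and p-values measure the spread between them.

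Alternatives were other scalings, no filter and a 1 CPM filter, DESeq2 1.42.0, limma 3.58.1 (voom), a 2-fold minimum, the mesenchyme score as covariate, a replicate block and each library left out. Total counts of 21101269 to 36810672 leave replicate differences far above counting error (chi-square per gene 10.3 to 106). Members, gene lists and named genes were chosen with earlier results of these data known. Named genes were taken from the largest changes in each direction, the strongest reversals, the smallest adjusted p values in each list with its strongest member against the majority, and a fixed panel.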

Additional observations from a re-analysis of the deposited data

Results flagged for a closer look

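The interaction is itself a difference between effects at 2 stages, and 4165 genes passed it. The tissue difference passed at both stages with opposite signs in 540 genes, and the stage change passed in both tissues with opposite signs in 395.

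Among 186 group values of 4 libraries, 21 had 1 library far from its companions, by Dixon's 95% criterion. Chance gives such a gap in about 1 of 20 groups if values are independent and normally distributed. The values here are CPM of chosen genes from the same libraries, so that rate is only a rough guide. In E14.5 urethra, replicate 1 was the highest for Spint1 (337.3 CPM against at most 171 in the other 3), Upk1a (529.4 against at most 126), Upk1b (706.7 against at most 207), Clca1 (425.9 against at most 108), Scnn1a (15.27 against at most 5.74), Arg1 (229.8 against at most 34.5) and Krt13 (5.502 against at most 0.473). Replicate 3 of that group was the highest for Mki67 (337.6 CPM against at most 273).

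In E14.5 bladder, replicate 1 was the highest for Krt5 (567.2 CPM against at most 143), Spry1 (13.87 against at most 7.97) and Scnn1a (7.759 against at most 5.94). It was the lowest for Cldn7 (176.1 CPM), Hoxb13 (29.14), Cdc20 (86.69) and Ccnb1 (97.83). Cma1 and Wnt10b were each at 0.06207 CPM (2 reads) in it and at 0 in its 3 companions. With 3 libraries at 0, any read in the other library meets the criterion. Replicate 2 was the highest for Fgfr3 (278.6 CPM), replicate 3 for Sema3a (25.46 CPM) and for the summed erythroid list (809.5 CPM against at most 281), and replicate 4 for Wnt6 (5.918 CPM against at most 4.95).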

How the results depend on the processing

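The counts of 4165 genes in all, 2219 toward bladder and 1946 toward urethra all moved by over 1.5 times under 3 settings. Pan-epithelial scaling gave 13086, 12819 and 267. A test against a 2-fold minimum gave 762, 565 and 197. The mesenchyme score as covariate gave 55, 16 and 39. DESeq2 size factors gave 4122 genes in all, upper-quartile factors 4131, no filter 3480, a 1 CPM filter 4042, DESeq2 5114 and voom 4576, with no gene passing on the opposite side. Leaving out 1 library gave 2642 to 5675 in all, 1507 to 2669 toward bladder and 1125 to 3006 toward urethra; the total moved by over 1.5 times without E18.5 urethra replicate 1, and the toward-urethra count without that library, E14.5 bladder replicate 4 or E14.5 urethra replicate 1, 2 or 4. Under pan-epithelial scaling the sign turned for Epcam (0.073) and St14 (0.078), which help to set it, and for Kit (0.28), Upk1a (0.26), Upk1b (0.27), Upk2 (0.90), Cldn7 (0.071), Marveld2 (0.12), Shh (0.34) and Sgk1 (0.28), none of them passing. With the mesenchyme score it turned for Col1a1 (-0.26), Pecam1 (-0.23), Upk1a (0.98), Upk1b (0.69) and Upk2 (1.02), none passing, and Upk2 ran from -0.85 to 0.10 over fits that left out 1 library, passing in none. Pan-epithelial scaling moved the median interaction of all genes from -0.01 to 1.36, so values under it are to be read against 1.36. Beyond this shift, the cause of the changes was not tested. Same-numbered bladder and urethra libraries correlated at -0.10 to 0.39 at E14.5 and at -0.19 to 0.14 at E18.5, so pairing was not established; a fit with the replicate number as a block gave 4276 genes, 2221 toward bladder and 2055 toward urethra, and kept 86% of the calls. Each group held 3 or 4 libraries, and folds of genes near 0 counts in a group are imprecise.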

Other observations

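Some gene groups differed between the tissues with few interaction calls under TMM scaling. Pan-epithelial scaling changed this for the cholesterol, oxidative phosphorylation and glycolysis groups. Under it 12819 of all 18286 genes tested passed toward bladder, so the calls of these groups are to be read against that share. Of 23 cholesterol synthesis genes, which code for the sterol pathway and its regulators, 22 were higher in bladder at the early stage and 18 at the late one, and none was lower at either. Of all 18286 genes, 4451 were higher in bladder at the early stage and 3453 at the late one. The median bladder minus urethra difference was 0.90 at the early and 0.78 at the late stage, with a median interaction of -0.29. The sums of the list were 2706 to 2931 CPM in E14.5 bladder, 1211 to 1792 in E14.5 urethra, 2505 to 2786 in E18.5 bladder and 1267 to 1949 in E18.5 urethra, with no overlap between tissues at either stage. One gene passed the interaction test in each direction. Under pan-epithelial scaling, which moved the median E14.5 difference of all genes to -1.04 and the median interaction to 1.36, 1 was higher and 1 lower in bladder at E14.5, 20 were higher at E18.5, and 21 passed the interaction toward bladder (median 1.06).

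Of 20 genes of oxidative phosphorylation 17 were higher in bladder at E14.5 and 20 at E18.5, with a median interaction of 0.04. Of all 18286 genes, 4451 and 3453 were higher in bladder at these stages. Under pan-epithelial scaling the E14.5 direction turned over, with 18 lower and none higher in bladder, 19 fell with stage in urethra, and all 20 passed the interaction toward bladder (median 1.40). Over all genes the median under that scaling was 1.36 for the interaction, -1.04 for the E14.5 difference and -0.84 for the urethral stage change. Of 21 glycolysis and hypoxia genes none passed the interaction test in edgeR (4 at an unadjusted p under 0.05), none in DESeq2 and 2 in voom; without E14.5 urethra replicate 1, 11 passed toward urethra, and under pan-epithelial scaling 15 passed toward bladder (median 1.02). Of 9 neuroendocrine genes, which mark the scattered hormone-secreting cells of the urethra, none passed in edgeR (2 at an unadjusted p under 0.05) or DESeq2. In voom 2 passed. The median interaction of these 9 genes was -2.09 in edgeR, so the lack of calls did not mean a median near 0. Their median bladder minus urethra difference went from -1.81 early to -4.39 late. Their sum was 95.2 to 149 CPM in E18.5 urethra and at most 50.0 in the other 11 libraries. In E18.5 bladder replicate 2 that sum was 30.9, against 6.99 and 8.29 in its companions, and without that library 3 genes passed toward urethra.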
